A study of Triticum polonicum with 10 samples.

Results

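Rht-A1 (TraesCS4A01G271000, on chromosome 4A) and Rht-B1 (TraesCS4B01G043100, on chromosome 4B) are the copies of 1 DELLA gene in the A and B subgenomes of wheat, that is, homoeologues. They were chosen by name for their role in plant height, not by their values, though earlier results of these data were known. They are 2 of the 274924 gene IDs in the deposited tables. RNA sequencing covered roots of dwarf Polish wheat, a tetraploid (Triticum polonicum) with A and B subgenomes, taken from 4-week seedlings after 1 week of treatment. There were 10 libraries and 10 treatments. All plants were of the same dwarf line. No tall line was included, and what makes the line short is not given in the labels.

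Of the 6 libraries without sulfate, 3 had no cadmium and received no iron salt, 50 µM FeCl3 or 200 µM FeCl3. The other 3 had the same supplies plus 80 µM CdCl2. The remaining 4 libraries came from plants given Fe2(SO4)3. Among them, 200 µM without cadmium is the treatment on which title code and treatment text are at one. For the other 3 the code and the text contradict each other on dose, cadmium or both, so they are called sulfate library B50CK, B50Cd and B200Cd after their codes. By code the names mean 50 µM without cadmium, 50 µM with cadmium and 200 µM with cadmium. By text they stand for 200 µM with cadmium, 50 µM without cadmium and 50 µM with cadmium. Each treatment had 1 library, and whether it pooled the 3 biological replicates named in the design text is not stated. Total counts ran from 13635628 to 19320820 per library.

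DELLA proteins hold back growth by restraining the transcription programme that the hormone gibberellin turns on. When gibberellin binds its receptor GID1, the receptor takes hold of the DELLA protein, which is then marked by an F-box protein and degraded. Rht-B1 is known for the semi-dwarfing alleles of wheat breeding, which encode proteins that gibberellin no longer removes. In Arabidopsis, DELLA proteins also restrain root growth under stress. Because control acts largely on the protein, the transcript levels below do not measure DELLA activity, and they do not show which allele the line carries. The bread wheat copy on chromosome 4D and the other genes of the gibberellin pathway were not analysed here, because the files pair no IDs with gene names.

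Both genes were well expressed in every root library, and Rht-B1 was the higher copy in most of them. Levels are in FPKM (counts scaled by gene length and by the library total), computed by the authors with lengths of 1863 bp for Rht-A1 and 1866 bp for Rht-B1. Rht-A1 ranged from 34.1 to 82.8 FPKM with a mean of 51.5 ± 15.0 (SD, n = 10 libraries), on 867 to 2614 counts. Rht-B1 ranged from 52.3 to 125.7 FPKM with a mean of 71.2 ± 22.4 (SD, n = 10 libraries), on 1339 to 3971 counts. Within a library Rht-A1 lay above 91.7% to 97.1% of the genes with a count, and Rht-B1 above 94.5% to 98.1%. As homoeologues the copies are expected to be similar in sequence, which was not measured here. The sources used here do not say how reads matching more than 1 gene were counted. The split of reads between the copies is therefore uncertain. D-subgenome IDs held 1.16% to 1.25% of all counts, and whether reads of either copy were counted there was not tested. In whole roots, a change in the share of cells that express a gene and a change of its RNA per cell cannot be told apart. The root label was not checked against marker genes, because the IDs carry no names.

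**Figure D1:**
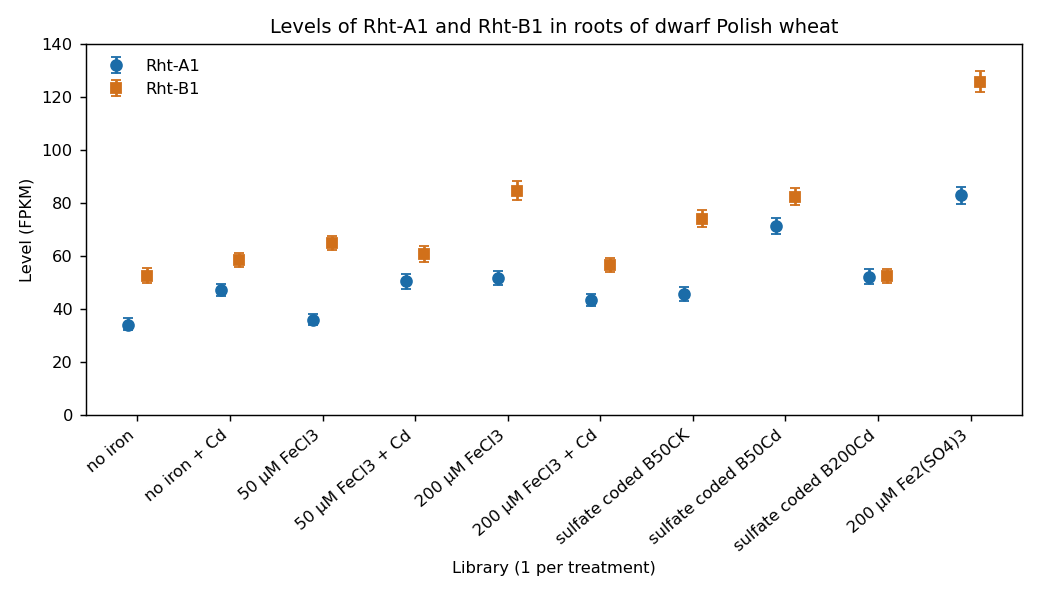
Level of Rht-A1 (circles) and Rht-B1 (squares) in FPKM, on the vertical axis, in each of the 10 libraries. Bars are 95% exact Poisson intervals and cover counting error only. The library with 200 µM Fe2(SO4)3 and no cadmium stood highest for both genes, at 82.8 and 125.7 FPKM.

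Rht-A1 stood at 34.1 FPKM in the control, 35.9 at 50 µM FeCl3 and 51.6 at 200 µM FeCl3, all without cadmium. With cadmium it stood at 47.3 without iron salt, 50.4 at 50 µM FeCl3 and 43.4 at 200 µM FeCl3. In FPKM its levels with cadmium thus lay within a narrower band than those without, and the groups overlapped. The narrower band was not kept after TMM scaling, which sets the bulk of genes level between libraries. On TMM-scaled CPM (CPM are counts scaled to the library total), Rht-A1 stood at 66.8, 67.9 and 85.0 without cadmium. With cadmium it stood at 78.8, 109.5 and 84.9 for the same supplies, a wider band that still overlapped. In the sulfate libraries Rht-A1 was at 45.5 (B50CK), 71.2 (B50Cd) and 52.2 FPKM (B200Cd), and at 82.8 FPKM at 200 µM without cadmium.

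Rht-B1 stood at 52.6 FPKM in the control, 64.8 at 50 µM FeCl3 and 84.7 at 200 µM FeCl3 without cadmium. With cadmium it was at 58.4, 60.8 and 56.5 FPKM for the same supplies. In FPKM the levels with cadmium again lay close together, inside the range of those without. On TMM-scaled CPM, Rht-B1 stood at 103.1, 122.8 and 139.8 without cadmium, and at 97.5, 132.4 and 110.7 with it. On that scale the levels with cadmium were not close together, and the lowest fell below all those without. The sulfate libraries held 74.1 (B50CK), 82.4 (B50Cd), 52.3 (B200Cd) and 125.7 FPKM (200 µM without cadmium).

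Ordered by level, the library at 200 µM Fe2(SO4)3 came top for both genes, and its counting interval met that of no other library. For Rht-A1, B50Cd followed, also clear of its neighbours. After it came a run of 6 libraries from 52.2 to 43.4 FPKM in which each interval overlapped the next, and then 50 µM FeCl3 and the control at 35.9 and 34.1 FPKM. For Rht-B1, 200 µM FeCl3 (84.7) and B50Cd (82.4) could not be separated. B50CK (74.1) stood alone, and the 6 lowest libraries, from 64.8 to 52.3 FPKM, overlapped from each to the next. These intervals cover counting error and not differences between plants, for which there is no replicate.

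The spread over libraries lay somewhat below that of the median gene. On log2(CPM + 0.5), where CPM are counts scaled to the library total, the SD over 10 libraries was 0.39 for Rht-A1 and 0.39 for Rht-B1. Among 25616 genes averaging 5 CPM or more, the median SD was 0.50, with quartiles of 0.36 and 0.71. Of these genes, 31.5% had a smaller SD than Rht-A1 and 31.9% a smaller one than Rht-B1. The copies were not set beside genes of a similar level alone. The highest level was 2.43 times the lowest for Rht-A1 and 2.40 times for Rht-B1. Without the library at 200 µM Fe2(SO4)3 these ratios were 2.09 and 1.62.

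The question of cadmium was addressed with the 3 pairs of libraries that share an iron supply and received no sulfate. Neither gene passed the test. The log2 fold with cadmium was 0.29 ± 0.31 (SE) for Rht-A1, with an adjusted p of 0.776 in edgeR's quasi-likelihood test with Benjamini-Hochberg adjustment over 55236 genes. It was -0.12 ± 0.30 for Rht-B1 (adjusted p = 0.922). Neither sign was stable: with the sulfate libraries added by treatment text the folds were -0.13 and -0.40, and without the pair at 200 µM FeCl3 they were 0.46 and 0.01. The same test called 0.0% of all genes at an adjusted p under 0.05. At an unadjusted p under 0.05 the edgeR test listed 12.0% of genes (6624). The unadjusted edgeR p was 0.382 for Rht-A1 and 0.713 for Rht-B1. DESeq2 called 4.29% of genes and limma on FPKM 0.0%, again without either copy.

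Single pairs showed how the folds were made up. As a ratio of CPM with its 95% exact counting interval, Rht-A1 with cadmium was 1.39 (1.28 to 1.51) times its level without iron salt, 1.40 (1.30 to 1.52) times at 50 µM FeCl3 and 0.842 (0.781 to 0.907) times at 200 µM. For Rht-B1 the ratios were 1.11 (1.04 to 1.19), 0.938 (0.879 to 1.00) and 0.668 (0.628 to 0.710). The median gene also moved, by 0.20, -0.12 and -0.21 on the log2 scale. Scaled by TMM, which sets the bulk of genes level between libraries, the ratios became 1.18, 1.61 and 0.998 for Rht-A1, and 0.946, 1.08 and 0.792 for Rht-B1. The sign for Rht-B1 at 0 and at 50 µM therefore turned with the scaling. Neither gene was 2-fold apart in any of the 3 pairs, while 31.3%, 16.3% and 20.5% of the 25616 genes were. A test added after these values had been seen, for a change of the cadmium effect with the FeCl3 dose, gave log2 slopes per 100 µM of -0.21 ± 0.44 for Rht-A1 and -0.18 ± 0.46 for Rht-B1. Neither passed in edgeR (adjusted p = 0.999 for each), where 0.0% of genes were called and 3.7% had an unadjusted p under 0.05.

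**Figure D2:**
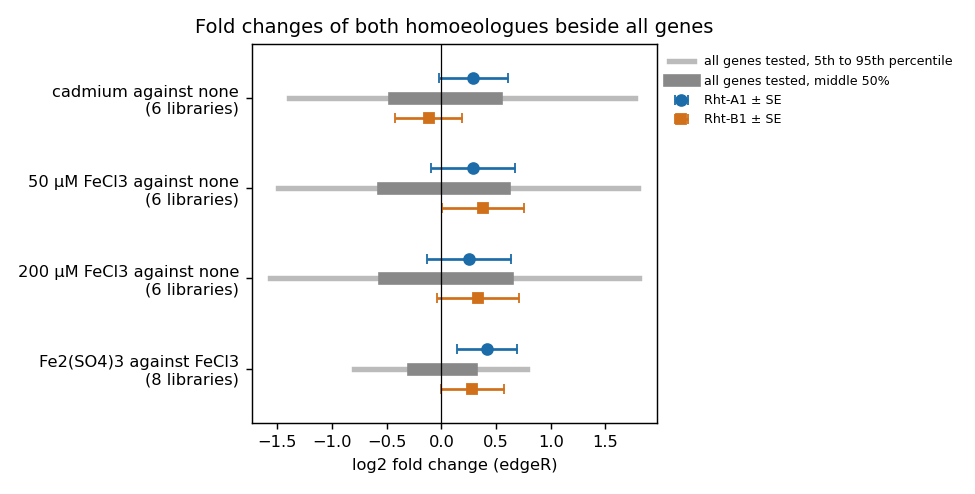
Log2 fold change of Rht-A1 (circles) and Rht-B1 (squares) from edgeR, on the horizontal axis, with bars of 1 standard error, for 4 comparisons. Grey bars give the middle 50% and the 5th to 95th percentiles of all genes tested. For cadmium the copies stood at 0.29 and -0.12, signs that turned when libraries were added or left out (-0.13 and -0.40 by treatment text, and 0.46 and 0.01 without the 200 µM pair). For the other 3 comparisons both stood above 0.

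Iron as FeCl3 was compared with no iron salt in the same fit. At 50 µM the log2 fold was 0.29 ± 0.38 (SE) for Rht-A1 and 0.38 ± 0.37 for Rht-B1, with adjusted p of 0.843 and 0.782 in edgeR. At 200 µM it was 0.25 ± 0.38 and 0.33 ± 0.37, with adjusted p of 0.848 and 0.788. Single libraries set the size of these folds. Without the library at 50 µM FeCl3 with cadmium the folds at 50 µM were 0.00022 and 0.22, and without the one lacking cadmium they were 0.57 and 0.54 (Rht-A1, then Rht-B1). At 200 µM they were 0.01 and 0.16 without the library lacking cadmium, and 0.49 and 0.52 without the one given it. Both doses share the libraries without added iron salt. Neither gene was called, nor was any other (0.0% at each dose), and 9.22% and 9.28% of genes had an unadjusted p under 0.05. DESeq2 called 1.53% of genes at 50 µM and 0.894% at 200 µM, and limma on FPKM called 0.0% at each, without either copy.

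In the absence of cadmium, 200 µM FeCl3 went with 1.51 times (1.39 to 1.65) the control's CPM for Rht-A1 and 1.61 times (1.50 to 1.72) for Rht-B1. Under cadmium the ratios between the same supplies were 0.919 (0.856 to 0.987) and 0.968 (0.908 to 1.03). TMM scaling gave 1.27 and 1.36 without cadmium, and 1.08 and 1.14 with it. The steps with cadmium were thus below 1 on CPM and above 1 with TMM. In none of the 6 contrasts between FeCl3 supplies was either copy 2-fold apart. Of all genes, 25.4% were 2-fold apart between 0 and 50 µM without cadmium and 24.6% with it. Between 0 and 200 µM the shares were 34.5% and 18.0%, and between 50 and 200 µM 16.5% and 3.89%.

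For the form of iron, the 4 FeCl3 libraries were set against the 4 with Fe2(SO4)3, which both hold each dose with and without cadmium under either reading of the labels. Rht-A1 was at 35.9, 43.4, 50.4 and 51.6 FPKM with chloride and at 45.5, 52.2, 71.2 and 82.8 FPKM with sulfate. Rht-B1 was at 56.5, 60.8, 64.8 and 84.7 FPKM with chloride and at 52.3, 74.1, 82.4 and 125.7 FPKM with sulfate. As whole groups the salts overlapped for both genes. The log2 fold, sulfate against chloride, was 0.42 ± 0.27 (SE) for Rht-A1 and 0.28 ± 0.29 for Rht-B1. Both had an adjusted p of 0.999 in edgeR, where 0.0% of 50484 genes were called and 3.57% had an unadjusted p under 0.05. DESeq2 called 0.0337% of genes and limma on FPKM 0.0%, and neither copy was called. Without the library at 200 µM Fe2(SO4)3 the log2 folds were 0.26 and 0.02. Each chloride library also has a sulfate partner of the same dose and cadmium state, a matching added after the values had been seen. Rht-A1 had the higher FPKM with sulfate in 4 of 4 such pairs under either reading, by 0.45 ± 0.18 on the log2 scale (SD) when matched by title code and 0.45 ± 0.46 by treatment text. With TMM scaling it was higher in 4 of 4 pairs by code and in 2 of 4 by text. Rht-B1 was higher in 3 of 4 pairs under either reading and either scaling. For Rht-A1 in FPKM the two-sided exact sign-flip test gave p = 0.125 under both readings, the smallest that 4 pairs allow. Of the 25616 genes, 9.65% were higher in CPM with sulfate in all 4 pairs by code and 6.7% by text. With dose and cadmium as terms of the edgeR fit, the log2 folds were 0.43 ± 0.28 and 0.27 ± 0.29 by code (adjusted p = 0.814 and 0.893). By text they were 0.39 ± 0.30 and 0.22 ± 0.27 (adjusted p = 0.997 for each). Equal doses in µM of salt did not carry equal iron, so the salt and the amount of iron cannot be told apart.

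In each salt, a library at 200 µM without cadmium has labels that match. Here the sulfate library held 1.61 times (1.50 to 1.71) the chloride CPM of Rht-A1 and 1.48 times (1.41 to 1.56) that of Rht-B1, or 1.80 and 1.67 times after TMM scaling. Both copies were higher with sulfate by similar factors, and neither was 2-fold apart, as 13.5% of all genes were. This is 1 library of each salt, with no replicate check.

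The balance between the copies was tilted towards B in most libraries. The ratio of Rht-A1 to Rht-B1, in FPKM, averaged 0.735 ± 0.140 (SD, n = 10 libraries) and ran from 0.554 at 50 µM FeCl3 without cadmium to 0.998 in B200Cd. In counts, Rht-A1 supplied 35.6% (95% exact binomial interval 34.0% to 37.2%) of the pair's reads in the first of these and 49.9% (48.1% to 51.7%) in the second. In B200Cd, the levels of the copies could not be told apart at this depth. In the other 9 libraries the interval of the A share lay below 50%. Since both copies come from the same library, this ratio does not depend on library size or on TMM scaling. Subgenome A as a whole supplied 50.6% to 51.2% of the counts of A and B genes, and chromosome 4A 49.3% to 51.2% of those of 4A and 4B.

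With cadmium the balance lay closer to equal in each of the 3 pairs. The A to B ratio was 0.649 in the control and 0.809 with cadmium, 0.554 and 0.828 at 50 µM FeCl3, and 0.609 and 0.768 at 200 µM FeCl3. The ratio with cadmium was therefore 1.25 times (95% exact counting interval 1.12 to 1.39), 1.50 times (1.35 to 1.66) and 1.26 times (1.14 to 1.39) that without. The mean difference was 0.41 ± 0.15 on the log2 scale (SD, n = 3 pairs), a fold of 1.33. The ratios without cadmium (0.554 to 0.649) and with it (0.768 to 0.828) did not overlap. A two-sided exact sign-flip permutation test over the pairs gave p = 0.25, the smallest p that 3 pairs allow, so this design cannot reach 0.05. An unpaired exact permutation test, added after the values had been seen, gave p = 0.1, again the smallest possible.

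**Figure D3:**
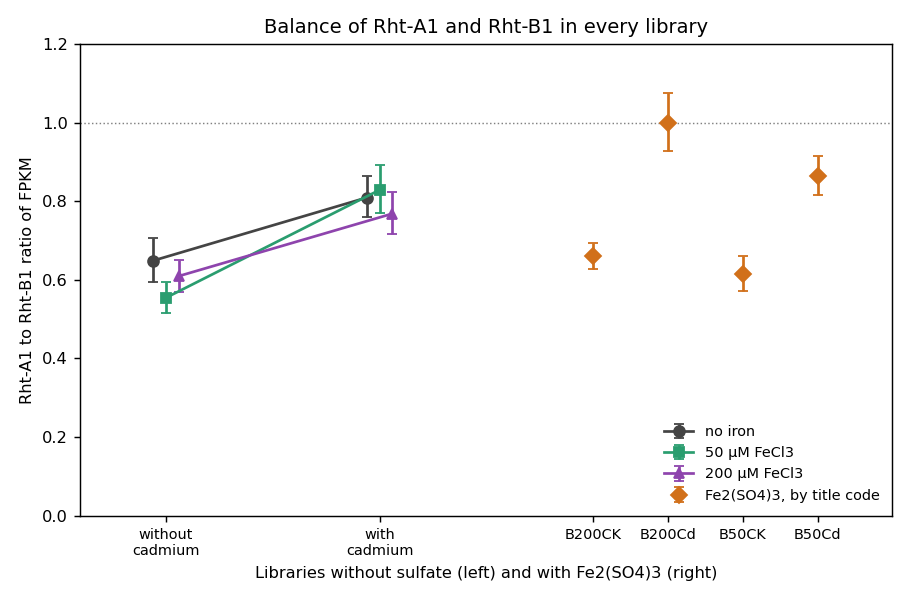
Ratio of Rht-A1 to Rht-B1 in FPKM, on the vertical axis, without and with cadmium for 3 iron supplies (lines join the pair of each supply) and in the 4 Fe2(SO4)3 libraries by title code. Bars are 95% intervals from the exact binomial interval of the A share, for counting error only, and the dotted line marks equal levels. All 3 libraries with cadmium on the left lie between 0.768 and 0.828, above the 3 without, at 0.554 to 0.649.

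Such a separation was common among ratios of unrelated genes. Of all ratios of an A gene to a B gene averaging 5 CPM or more, 9.16% were higher with cadmium without overlap in these 6 libraries. When Rht-B1 was set under every A gene the share was 12.8%, and when Rht-A1 was set over every B gene it was 11.8%. The lack of overlap in 3 pairs alone therefore does not set this ratio apart from ratios of A and B genes at large. Other pairs of homoeologues were not compared. The shift was made up of different moves. Rht-A1 was higher with cadmium at 0 and 50 µM FeCl3, by CPM and by TMM, while at 200 µM Rht-B1 was lower on both scales and Rht-A1 was lower on CPM and level after TMM scaling.

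In the sulfate libraries the ratio was 0.614 in B50CK, 0.864 in B50Cd, 0.998 in B200Cd and 0.659 at 200 µM without cadmium. Read by the title codes, the ratio was higher with cadmium in 5 of 5 pairs, by 0.46 ± 0.13 on the log2 scale (SD), and ran from 0.554 to 0.659 without cadmium and from 0.768 to 0.998 with it. The exact sign-flip test gave p = 0.0625, the smallest that 5 pairs allow, and the added unpaired exact permutation test gave p = 0.00794, also its smallest. Of all A to B ratios, 3.56% were higher with no overlap under this reading, 6.99% of those over Rht-B1 and 0.716% of those under Rht-A1. Read by the treatment text, the ratio was higher in 4 of 5 pairs, by 0.27 ± 0.25, the groups overlapped, and the p were 0.125 and 0.135. Over 58497 genes, the edgeR cadmium fit of all 10 libraries called 1012 genes up and 441 down by title codes. By treatment text it called 0 in either direction. Which reading is right was not tested.

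Contrasts of iron dose gave balance factors on both sides of 1. From no iron salt to 200 µM FeCl3 the A to B ratio differed by a factor of 0.939 (0.842 to 1.05) without cadmium. With cadmium the factor was 0.950 (0.863 to 1.04), and both intervals spanned 1. From no iron salt to 50 µM the factor was 0.854 (0.764 to 0.956) without cadmium and 1.02 (0.929 to 1.13) with it. At 200 µM without cadmium, sulfate against chloride gave 1.08 (0.996 to 1.18). Over 4 libraries of each salt the log2 ratio was -0.55 ± 0.27 with chloride and -0.38 ± 0.33 with sulfate (SD, n = 4 each). The difference of 0.18 gave p = 0.429 in a two-sided exact permutation test, against a smallest possible p of 0.0286. Matched by dose and cadmium, the ratio was higher with sulfate in 4 of 4 pairs by title code, by 0.06 to 0.38 on the log2 scale. The exact sign-flip test gave p = 0.125, the smallest possible. Matched by treatment text, the ratio was higher in 3 of 4 pairs, with p = 0.5 in the same exact test.

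**Figure D4:**
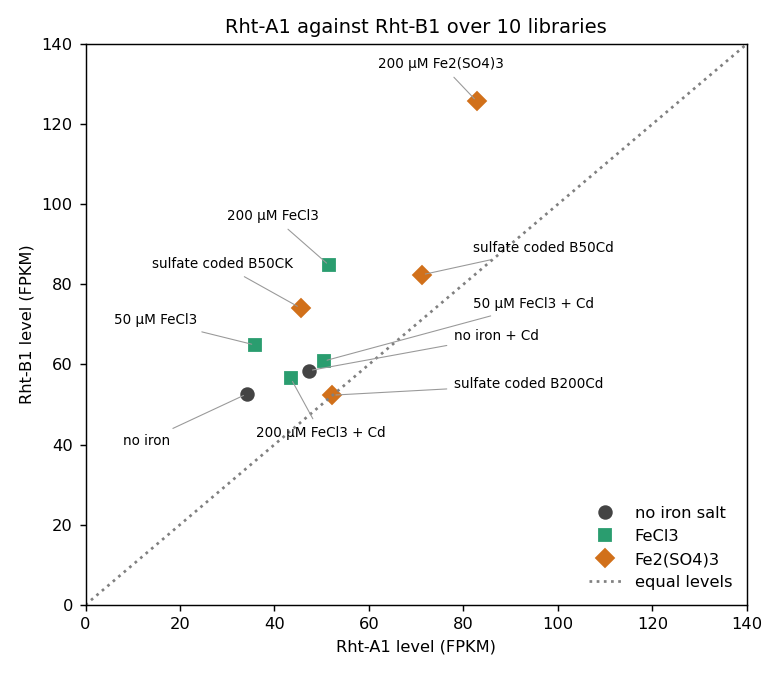
Rht-B1 level against Rht-A1 level, both in FPKM, with 1 point per library and the dotted line marking equal levels. 9 libraries lie above the line and B200Cd lies on it, at 52.2 and 52.3 FPKM, while 200 µM Fe2(SO4)3 stands apart at the top.

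Across the 10 libraries the copies moved together only in part. Log2 CPM of Rht-A1 and Rht-B1 had Pearson's r = 0.76 (p = 0.0174, permutation test) and Spearman's rho = 0.50 (p = 0.142, permutation test). With TMM-scaled values, an alternative added later, these were 0.76 (p = 0.0158) and 0.68 (p = 0.0325), also by permutation. Adjusted over the 4 correlations, the p of r and rho were 0.0348 and 0.142 on CPM, and 0.0348 and 0.0434 after TMM scaling. Without B50Cd and 200 µM Fe2(SO4)3, the libraries farthest from the median of Rht-A1, r was 0.28 on CPM and 0.19 on TMM-scaled values, a weaker relation among the other 8. Leaving out the extremes also narrows the range of Rht-A1, which lowers r by itself. The points share the depth and composition of each library.

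Each copy stood high in the order of genes most like the other, though neither came first. Among 25615 genes ordered by Pearson's r with Rht-A1, Rht-B1 stood at rank 1039, and Rht-A1 stood at rank 418 in the order for Rht-B1. Of all genes, 4.05% had an r with Rht-A1 at least as high as that of Rht-B1. In the order for Rht-B1 the share at or above Rht-A1 was 1.63%. The median r over all genes was 0.008 with Rht-A1 and 0.011 with Rht-B1, against 0.76 between the copies. The genes most like Rht-A1 were TraesCS7B01G008400 (r = 0.94), at 20.9 to 105.2 FPKM, and TraesCS6A01G519300LC (r = 0.94), at 8.43 to 28.7 FPKM. Most like Rht-B1 were Novel00690 (r = 0.92), at 1.21 to 4.62 FPKM, and TraesCS5B01G115000LC (r = 0.92), at 18.8 to 132.6 FPKM. These r over 10 libraries are the highest of 25615 and are given as a description. The suffix LC marks low-confidence gene models.

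The IDs next to each copy by number were mostly expressed at lower levels. TraesCS4A01G270900 and TraesCS4A01G271100, on either side of Rht-A1, ranged from 2.39 to 6.63 FPKM and from 0.0691 to 1.17 FPKM. Beside Rht-B1, TraesCS4B01G043000 ranged from 0.142 to 2.73 FPKM and TraesCS4B01G043200 from 1.79 to 6.57 FPKM. A step further out, TraesCS4A01G270800 (2.28 to 113.5 FPKM) and TraesCS4B01G043300 (9.61 to 143.8 FPKM) each covered a wide range. TraesCS4A01G271200 ran from 12.6 to 24.3 FPKM and TraesCS4B01G042900 from 11.2 to 26.0 FPKM. Of these 8 neighbours, TraesCS4B01G042900 and TraesCS4B01G043200 were highest in the same library as both Rht-1 copies, 200 µM Fe2(SO4)3. The share of all genes highest in that library is not given here, so no link by position can be read from this.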

How the data were processed

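Root RNA was taken with Trizol and made into libraries with an Illumina TruSeq RNA kit, per the labels' protocols. The authors deposited whole-number read counts per gene ID and FPKM values for the same 274924 IDs. Per the submitters' processing notes, the tools included TopHat2 2.0.12 and Bowtie2 2.0.6. Not given in the sources used here are the counting program, genome build, annotation, filters and strand setting. CPM (counts scaled to the library total) divided by the deposited FPKM gave 1 length for each copy, equal in all 10 libraries, so the FPKM were counts scaled by length and library total.

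Both genes and the lists were chosen with earlier results of these data known. Counts were tested on the whole table with edgeR 4.0.16 (quasi-likelihood test, TMM, default filter, adjusted p under 0.05) under R 4.3.3. The additive fit of 6 libraries had cadmium and iron supply as terms and 2 residual degrees of freedom, so the 3 pairs at different supplies served as replication. P-values thus measure the spread between single libraries of different treatments. DESeq2 1.42.0 and limma 3.58.1 on log2(FPKM + 0.1), with a mean of at least 0.5 FPKM, were alternatives, beside other filters, scalings, label readings and left-out libraries. As a check of the code, the edgeR steps were run on simulated data. The planted changes were larger than the folds of either copy, so this does not gauge the power for them. Permutation tests and 95% exact intervals used scipy 1.17.1, with 100000 permutations for correlations. Standard errors were derived from the log2 fold and the F statistic. Named besides both copies were, by rule, the 2 genes with the highest r for each and the 2 IDs on either side. A list of gibberellin pathway genes could not be matched to IDs and gave no result.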

Additional observations from a re-analysis of the deposited data

How the results depend on the processing

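In the 4 edgeR comparisons of cadmium, FeCl3 dose and salt, neither copy had an adjusted p under 0.05 in any of 108 alternative values, and 4 of these reversed in sign. Of the 54 tests across all genes behind these values, 32 called no gene at all, and the others called up to 5.75% of genes. For the added test of cadmium by FeCl3 dose no alternative was run. With the sulfate libraries added, the cadmium log2 folds of Rht-A1 and Rht-B1 were 0.20 and -0.27 by title codes, and -0.13 and -0.40 by treatment text. Leaving out a library or a pair gave cadmium log2 folds of 0.10 to 0.46 for Rht-A1 and of -0.22 to 0.011 for Rht-B1, the latter above 0 without a library or the pair at 200 µM FeCl3. The same step gave 0.00022 to 0.57 and 0.22 to 0.54 for 50 µM FeCl3, 0.01 to 0.49 and 0.16 to 0.52 for 200 µM, and 0.26 to 0.56 and 0.02 to 0.45 for the salts (Rht-A1, then Rht-B1). The cause was not tested. In these fits a supply or salt can be left with fewer libraries, assumed to vary like the others. The cadmium difference of the A to B balance stayed above 0 throughout, at 0.33 to 0.46 (log2) without 1 pair. It passed 0.05 with 0.46 in the added unpaired test by title codes, where the groups hold 5 libraries each. The paired sign-flip test by title codes gave p = 0.0625, and the unpaired permutation test by treatment text gave p = 0.135. By title codes, 3.56% of all A to B ratios were likewise higher with cadmium without overlap. The share was 6.99% of ratios over Rht-B1 and 0.716% of those under Rht-A1. The salt difference of the balance was 0.05 to 0.28 without 1 library. With a minimum of 1 CPM, 0 of the 4 named genes of similar pattern were kept, since lower genes then enter the order. No paired analysis by replicate number was possible because the labels give no replicate numbers. Pairs were instead formed by treatment: by iron supply for cadmium, and by dose and cadmium for the salts. Depth gave each copy at least 867 counts per library.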
